A study of Sus scrofa with 12 samples.

Results

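Porcine embryos injected with a short interfering RNA against cyclin B2 (si-CCNB2) and titled 2c were compared with control embryos titled 4c. The members were the 3 libraries titled si-2c and the 3 titled con-4c, 6 of the 12 SMART-seq libraries of the series, and they were taken by their titles. The embryos were produced by in vitro fertilization, and every library was made from a pool of several embryos. The labels give the treatment of the con-4c embryos as blank control, while the methods speak of normal embryos of an NC (negative control) group, so the effect of the injection itself cannot be told apart from that of the siRNA. The remaining libraries, 3 titled con-2c and 3 titled si-4c, served as reference levels and for the estimate of the spread.

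The title and the tissue label disagreed in every library. The con-4c libraries were labelled 2-cell as tissue and the si-2c libraries 4-cell, so the names below stand for titles. Treatment and stage differ at once between con-4c and si-2c under either label, and their parts in a difference cannot be told apart. Nothing in the labels says that the libraries of a group came from separate fertilizations, so the p-values measure the spread between these libraries, which may be partly technical.

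Cyclin B2 is a mitotic cyclin. It binds the kinase CDK1, and the complex drives entry into M phase until the anaphase-promoting complex marks the cyclin for destruction. The egg supplies the early embryo with stored maternal mRNA. This store is degraded during the first cleavages while the embryonic genome begins to be transcribed, a change called zygotic genome activation (ZGA), which in the pig is placed mainly at the 4-cell stage. Genes for ribosomes, RNA processing and transcription are among those commonly transcribed early in ZGA.

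The siRNAs that the study lists against CCNB2 are shown because they define the perturbed gene. The sequences are printed 5′ to 3′ in RNA letters, and the study's methods do not say which of them was injected for these libraries. In the last of the lines below, a primer of the study for CCNB2 mRNA, the capitals mark the 11 bases at its 3′ end, and the capitals in Si-CCNB2-2 mark the same 11 bases at its 5′ end with U for T.
CCNB2 siRNA Si-CCNB2-1: gcagguccacuccaaguuu
CCNB2 siRNA Si-CCNB2-2: GCUUAUACCAGuucccaaa
CCNB2 forward primer: atcacagacaacGCTTATACCAG
Si-CCNB2-2 is thus written in the direction of the mRNA.

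CCNB2 (ENSSSCG00000004588; Sscrofa11.1 chromosome 1, 112907047 to 112942218) was examined first. Levels are given as CPM, the counts divided by the library size after TMM scaling. It had 510.4, 485.5 and 428.8 CPM in con-4c replicates 1, 2 and 3, and 17.8, 28.8 and 21.6 CPM in si-2c replicates 1, 2 and 3. The highest si-2c library was thus far below the lowest con-4c library. The mean fell from 475 ± 41.9 (SD, n = 3) to 22.7 ± 5.58 CPM, 4.78% of con-4c (log2 difference −4.39, SE 0.15, edgeR adjusted p = 2.00e-11). The means were 464 CPM in con-2c and 42.6 CPM in si-4c. The treatment labels of the 6 libraries therefore matched the level of the targeted gene, and CCNB2 had the smallest p of the genes tested.

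Library totals were 27785233 to 28771777 counts in con-4c and 33270517 to 38649571 in si-2c, and 21181 to 21647 and 22105 to 23279 genes had at least 1 count. By count differences, but not by correlation, 1 si-2c library stood apart from the others of its group. The count differences of si-2c replicate 3 from si-2c replicates 1 and 2 were 30.9 and 31.5 times those of counting error (chi-square per degree of freedom), against 10.4 between replicates 1 and 2 and 6.47 to 8.06 among the con-4c libraries. The correlation of log2 CPM was 0.96 and 0.961 for these pairs of replicate 3. It was 0.962 between si-2c replicates 1 and 2, and 0.953 to 0.955 among the con-4c libraries. Among the egg and early embryo markers, ZP2, ZP4, GDF9, BMP15 and OOEP had 143, 528, 468, 985 and 371 CPM in con-4c and 178, 482, 462, 1228 and 440 CPM in si-2c. The chosen markers ZP3, NLRP5 and ZAR1 are not reported here. Over all 40 tested oocyte and maternal-effect genes the summed level was lower in si-2c, at 67380 to 79130 CPM against 83010 to 86520 CPM in con-4c. Markers of other cell types had lower summed levels, and whether their reads came from other cells was not tested. For 12 tested cumulus and granulosa genes the summed level was 218 to 226 CPM in con-4c and 206 to 235 in si-2c, of which VCAN took 177 and 184 CPM, and HAS2, CYP11A1, FOXL2 and FSHR were too low to be tested. For 7 sperm genes it was 65.9 to 70.2 and 71.8 to 78.0 CPM, of which LDHC took 38.5 and 43.8 CPM, and CRISP2, GAPDHS, SPACA1 and ACR were too low to be tested. For 9 blood and immune genes it was 7.48 to 8.68 and 5.51 to 6.59 CPM, ITGAM having the most counts. No gene of these lists was called by edgeR or DESeq2, and at an unadjusted edgeR p below 0.05 the numbers were 1, 1 and 1.

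To see which genes fell short of or exceeded con-4c, si-2c was tested against con-4c over 17995 genes. A gene was called at an edgeR adjusted p below 0.05 with at least a 2-fold difference, which is a log2 fold change of at least 1. In si-2c 293 genes (1.63%) were called lower and 29 (0.161%) higher, 322 (1.79%) in all. Higher genes made 9.01% of the calls, and 21.9% (60 higher and 214 lower) with libraries scaled by their totals. The number higher was 17 without si-2c replicate 1. Without si-2c replicate 3 the numbers were 242 lower and 27 higher, of which 207 and 17 were among the calls above. Without the minimum fold 957 genes (5.32%) were lower and 399 (2.22%) higher. The libraries of 292 of the 293 lower genes did not overlap, while si-2c was wholly below con-4c in 16.1% of all genes tested and wholly above in 11%. The lower calls were mostly of moderate size, 192 having a log2 fold change smaller than 1.5 in size and 33 one of at least 2, and 196 of the 293 had at least 10 CPM in con-4c. The higher calls were of rare transcripts. The highest mean of a called higher gene in si-2c was 14.8 CPM, and 9 of the 29 had no count in any con-4c library.

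**Figure D1:**
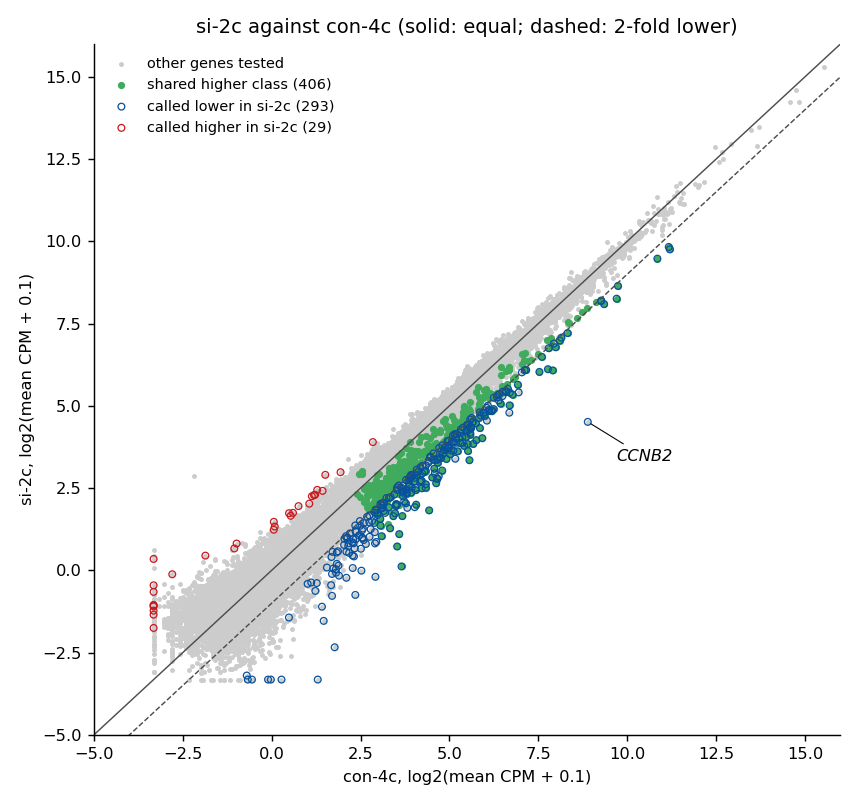
Mean level of each tested gene in con-4c (horizontal axis) and si-2c (vertical axis), as log2 of CPM after adding 0.1 CPM; blue rings are the 293 genes called lower, red rings the 29 called higher, and green points the 406 genes of the shared higher class. The green points lie mostly between the line of equal level and the dashed line of a 2-fold shortfall, and the red rings lie at low levels.

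The genes called lower were compared with the groups that the contrast does not use. Their median level was 16.8 CPM in con-4c, 6.81 in si-2c, 1.69 in con-2c and 1.56 in si-4c, so that the median of si-2c lay between that of con-4c and those of the other groups. Because con-4c chose these genes, this order is partly fixed by the choice. A class that treats con-4c and si-2c alike was therefore formed, after the data had been seen and with no test of its own. It holds the 406 tested genes whose mean over con-4c and si-2c was at least 5 CPM and at least 4 times the mean over con-2c and si-4c, and it is called the shared higher class here. The rule fixes that the mean of con-4c and si-2c lies above con-2c and si-4c, and a gene could enter mainly through its con-4c level.

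In the shared higher class si-2c fell short of con-4c across nearly all genes. The log2 fold change was negative in 402 of 406 (99.0%, against 51.4% of all genes tested), with a median of −0.92 (quartiles −1.23 and −0.64) beside −0.02 over all genes. The median member stood at 52.7% of its con-4c level, and the middle portion of the class, between the quartiles, at 42.6% to 64.1%. Of the class 152 genes (37.4%, beside 1.63% of all genes tested) were called lower and 0 higher, also 0 by DESeq2 and 0 at an unadjusted edgeR p below 0.05. The libraries of the groups did not overlap in 368 of the 406 genes, si-2c being the lower in each, where 16.1% of all genes tested have si-2c wholly below con-4c. The shortfall was alike in the si-2c libraries, with medians of −0.90, −0.84 and −0.94 on the log2 scale for replicates 1, 2 and 3 relative to the con-4c mean, against −0.01 to 0.01 in the con-4c libraries. The con-2c libraries were at −3.57 to −3.54 and the si-4c libraries at −3.74 to −3.67. Summed over the class, con-4c held 26180 to 27310 CPM, si-2c 12180 to 13520, con-2c 1202 to 1340 and si-4c 1088 to 1161. In a bulk library fewer cells of a kind and less RNA per cell cannot be told apart, nor can fewer embryos with the transcript and less of it in each.

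The size of the shortfall changed little with how far a gene of the class stood above con-2c and si-4c. The median log2 fold change was −0.92 for 133 genes at 4 to 8 times their level, −0.86 for 79 genes at 8 to 16 times, −0.92 for 103 genes at 16 to 64 times and −0.96 for 91 genes beyond. The shared lower class, 253 genes of at least 5 CPM in con-2c and si-4c and at least 2 times lower in con-4c and si-2c, showed a smaller difference of the opposite sign. Its rule asks for 2 times where that of the shared higher class asks for 4 times. Its con-2c medians stood only 1.14 to 1.33 above con-4c on the log2 scale, so the sizes of the differences are not directly comparable. The median log2 fold change of the shared lower class was 0.17, and 182 of 253 genes were positive (28.1% negative, beside 51.4% of all genes tested). At an adjusted p below 0.05, 25 were higher (9.88%, beside 2.22% of all genes) and 8 lower (3.16%, beside 5.32%). None was called (0 by DESeq2, with 75 genes higher and 13 lower at an unadjusted edgeR p below 0.05). In the other 7392 genes of at least 5 CPM the median was 0.01, with 66 called lower and 5 higher.

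**Figure D2:**
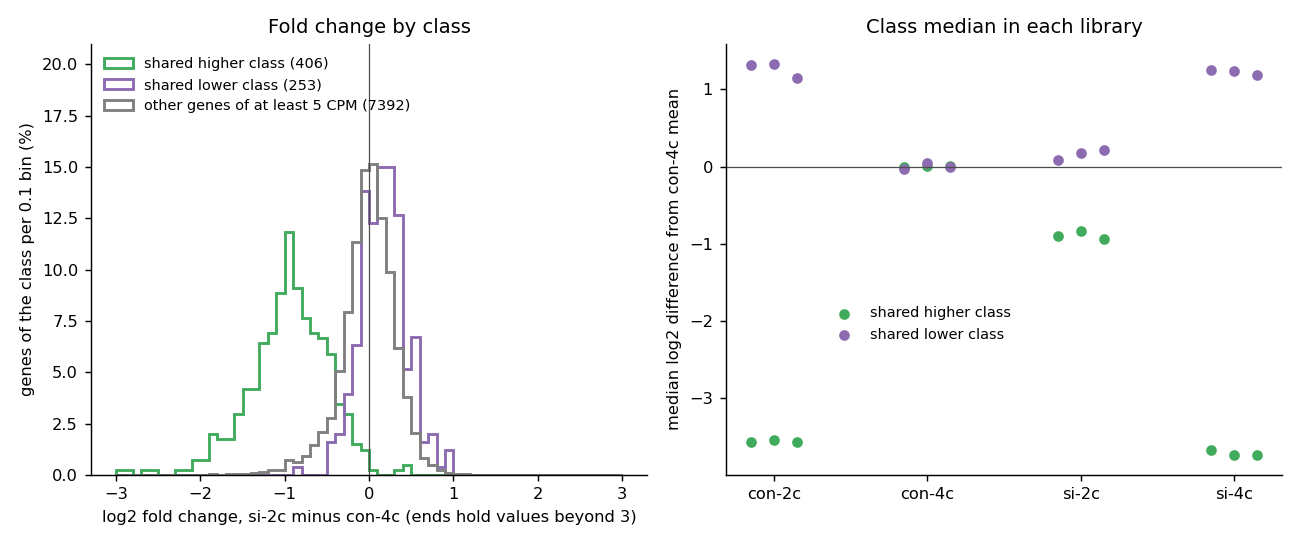
Left, the distribution of the log2 fold change (si-2c minus con-4c) in the shared higher class, the shared lower class and the other genes of at least 5 CPM, in percent of each class. Right, the median log2 difference from the con-4c mean in each of the 12 libraries; the si-2c points of the shared higher class sit at −0.94 to −0.84, between con-4c and the con-2c and si-4c libraries.

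Of the genes called lower that carry a symbol, MSANTD5, SLC31A1, CCNB2, CDV3 and SUB1 fell by the most CPM. A pair of genes without a symbol, which fell from 2309 to 910.0 CPM and from 1843 to 711 CPM, stood between MSANTD5 and SLC31A1. MSANTD5, a gene with a Myb/SANT DNA-binding type domain, had 2165, 2522 and 2360 CPM in con-4c and 775, 952 and 866.5 CPM in si-2c (log2 difference −1.44, SE 0.13, edgeR adjusted p = 4.57e-06), and 10.6 and 0.816 CPM in con-2c and si-4c. SLC31A1, which encodes the copper transporter CTR1, had 804, 869 and 828 CPM in con-4c and 292, 311 and 314 CPM in si-2c. It fell by 1.45 on the log2 scale (SE 0.09, edgeR adjusted p = 1.23e-07), and con-2c held 28.6 CPM and si-4c 17.7 CPM. CDV3 fell from 240 ± 11.8 to 67.4 ± 11.9 CPM (log2 fold change −1.83, edgeR adjusted p = 1.09e-06). SUB1, a coactivator of RNA polymerase II, fell from 320 ± 22.5 to 148 ± 40.8 CPM (−1.11, edgeR adjusted p = 0.000667), or −0.96 without si-2c replicate 1. In each of these genes all si-2c libraries were below all con-4c libraries. FAM32A, C19orf53, BLOC1S2 and PRDX6, the last a peroxiredoxin that reduces peroxides, fell by 1.08, 1.51, 1.32 and 1.30 on the log2 scale (edgeR adjusted p 3.13e-06, 1.01e-06, 2.12e-06 and 2.12e-06).

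In some members of the shared higher class the shortfall did not pass the test. RSRP1, an arginine and serine rich protein gene, had 52.5, 60.0 and 54.1 CPM in con-4c and 49.1, 46.95 and 47.8 CPM in si-2c (log2 fold change −0.21, edgeR adjusted p = 0.286), with 3.445 CPM in con-2c. NXF1, the main exporter of mRNA from the nucleus, had 29.0 CPM in con-4c and 24.1 CPM in si-2c (−0.26, SE 0.15, edgeR adjusted p = 0.386). CCNG2, an atypical cyclin, had 17.5 and 14.97 CPM (−0.22, SE 0.26, edgeR adjusted p = 0.763), and TENT5A had 12.4 and 11.7 CPM (−0.09, SE 0.28, adjusted p = 0.937). In RSRP1 and NXF1 every si-2c library was still below every con-4c library, while the ranges of CCNG2 and TENT5A overlapped. These genes were picked after their values were seen, from the 25 members with the smallest shortfall, and a p above the threshold does not show equal levels. The 4 members with a positive log2 fold change, all without a symbol, were at 0.02 to 0.50 (edgeR adjusted p 0.539 to 0.982).

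**Figure D3:**
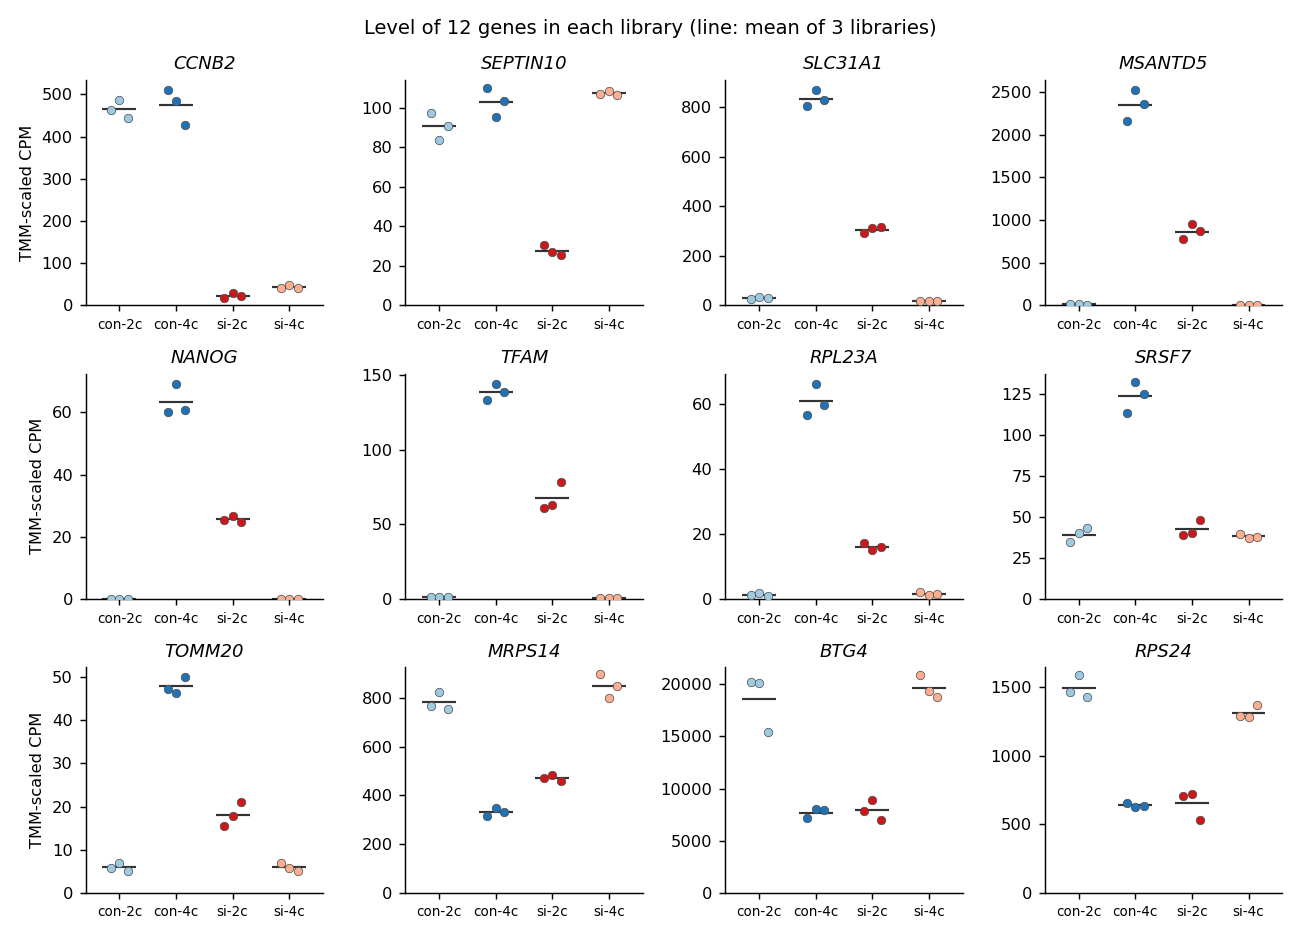
Level of 12 genes in each of the 12 libraries (points) with the mean of each group (line), in TMM-scaled CPM on axes that start at 0. In SLC31A1, MSANTD5, NANOG, TFAM, RPL23A and TOMM20 the si-2c libraries stand between con-4c and the con-2c and si-4c libraries; CCNB2 and SEPTIN10 are lowest in si-2c, and BTG4 and RPS24 overlap between con-4c and si-2c.

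SEPTIN10, which encodes a GTP-binding protein of the septin cytoskeleton, had the smallest p after CCNB2 and did not follow the class. It had 109.9, 95.3 and 103 CPM in con-4c and 30.2, 27.2 and 25.3 CPM in si-2c (log2 difference −1.90, SE 0.09, edgeR adjusted p = 3.54e-09). With 90.5 CPM in con-2c and 107 CPM in si-4c, the si-2c libraries held the lowest level of the 4 groups. Of the 293 genes called lower, 23 were in this position by their group means, with the si-2c mean below those of con-2c and si-4c. CCNB2 was one of them, and others were POLR2F, a small subunit shared by the RNA polymerases (80.7 CPM in con-4c, 38.3 in si-2c, 65.2 in con-2c and 43.5 in si-4c), and TEFM, the elongation factor of mitochondrial transcription (16.4, 5.57, 13.7 and 12.7 CPM in the same order). ABHD5, an activator of triglyceride breakdown, had 12.8, 5.81, 7.71 and 7.17 CPM. In POLR2F and ABHD5 single libraries of si-2c and si-4c overlapped, at 43.8 CPM in si-2c replicate 2 and 42.0 CPM in si-4c replicate 2 for POLR2F, and at 6.80 CPM in si-2c replicate 3 and 5.43 CPM in si-4c replicate 1 for ABHD5. Without si-2c replicate 3 POLR2F was at −0.98, and without si-2c replicate 2 ABHD5 was at −0.99, under the minimum fold. No test between si-2c and the con-2c or si-4c libraries was made for these genes.

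Of the gene lists, cytosolic ribosomal proteins had the lowest median log2 fold change, −0.94, followed by pluripotency factors, and without con-4c replicate 2 both lists had a median of −0.92. Of 67 tested genes 26 (38.8%) were called lower and 0 higher, beside 1.63% and 0.161% of all genes (0 higher by DESeq2 and 1 at an unadjusted edgeR p below 0.05). At an adjusted p below 0.05 alone 45 of 67 (67.2%) were lower, beside 5.32%. Near-identical copies of these genes are common, and how reads shared between copies were counted is not given in the sources used here. RPL23A had 56.4, 65.98 and 59.6 CPM in con-4c and 17.35, 15.05 and 15.8 CPM in si-2c, with 1.24 CPM in con-2c and 1.61 CPM in si-4c. Every si-2c library was below every con-4c library, and the mean fell from 60.7 ± 4.87 to 16.1 ± 1.17 CPM (log2 difference −1.92, SE 0.17, edgeR adjusted p = 3.37e-06).

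The ribosomal proteins were not uniform. Of the 21 tested members in the shared higher class 17 were called lower and 19 were lower at an adjusted p below 0.05, with a median of −1.34. Of the 46 outside it 9 were called lower and 26 were lower at an adjusted p below 0.05, with a median of −0.64. The con-4c level enters the rule of the class, so the larger shortfall inside it is partly fixed by the choice. FAU, a fusion of a ubiquitin-like protein with RPS30, had 2.68 CPM in con-2c and 1.18 in si-4c and fell from 254 ± 12.9 CPM in con-4c to 109.8 ± 15.5 CPM in si-2c (log2 fold change −1.21, edgeR adjusted p = 4.29e-05). Other members did not pass the test. The most abundant, RPS24, had 656, 624 and 637 CPM in con-4c and 708, 720.0 and 529 CPM in si-2c (0.03, SE 0.10, edgeR adjusted p = 0.937), beside 1496 CPM in con-2c. RPL7 was the highest in log2 fold change, at 0.23 (SE 0.10, edgeR adjusted p = 0.213), and RPL5 and RPS3 were at −0.04 and −0.07 (adjusted p 0.908 and 0.774).

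**Figure D4:**
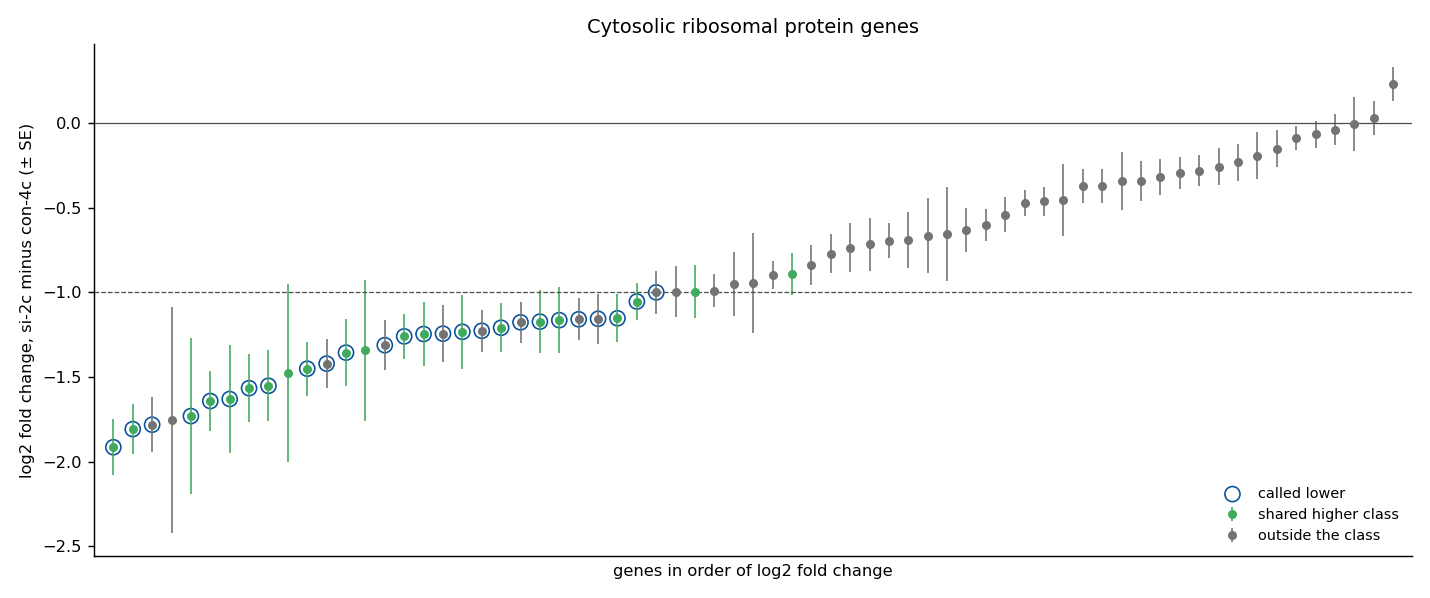
Log2 fold change (si-2c minus con-4c) with its SE for the 67 tested cytosolic ribosomal protein genes, in order of that value. Green members belong to the shared higher class, rings mark the 26 called lower, and the dashed line is a 2-fold shortfall; the values run from −1.92 in RPL23A to 0.23 in RPL7.

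Genes that build the ribosome and run translation also held called members. Of 56 tested genes of ribosome biogenesis 7 (12.5%, beside 1.63%) were called lower and 20 were lower at an adjusted p below 0.05 (35.7%, beside 5.32%), with a median log2 fold change of −0.42. EMG1, a methyltransferase that modifies small subunit ribosomal RNA, had 105.6, 106.4 and 116 CPM in con-4c and 41.3, 46.2 and 33.9 CPM in si-2c, and 2.81 CPM in con-2c (−1.44, SE 0.12, edgeR adjusted p = 2.12e-06). NOP16 fell from 25.9 to 7.17 CPM (−1.85, edgeR adjusted p = 3.61e-06), and FBL, fibrillarin, the methyltransferase of box C/D snoRNPs, from 37.4 to 12.2 CPM (−1.62, adjusted p = 5.94e-05). NPM1, nucleophosmin, one of the most abundant members, went from 2469 ± 167 to 1912 ± 62.2 CPM, which passed the test without the minimum fold (−0.37, SE 0.08, edgeR adjusted p = 0.00579). DDX18, another abundant member, had 2405 and 2056 CPM (−0.23, edgeR adjusted p = 0.320).

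Of 41 translation factors 4 (9.76%, beside 1.63%) were called lower, 16 were lower at an adjusted p below 0.05 (39.0%, beside 5.32%), and the median was −0.34. With libraries scaled by their totals 2 were called lower. EEF1E1, a scaffold of the multi-tRNA synthetase complex, had 64.9, 78.05 and 75.2 CPM in con-4c and 26.1, 28.2 and 31.1 CPM in si-2c (−1.35, SE 0.10, edgeR adjusted p = 1.59e-06). EIF3G, a subunit of initiation factor eIF3, fell from 22.8 to 6.97 CPM (−1.71, edgeR adjusted p = 7.55e-06), and EIF6, which keeps the large ribosomal subunit apart, from 143 to 68.0 CPM (−1.07, adjusted p = 5.20e-05, or −0.93 without si-2c replicate 3). EIF1AX, which the study used as a ZGA marker under the name EIF1A, had 168, 182 and 172 CPM in con-4c and 93.9, 89.7 and 84.65 CPM in si-2c. It fell by 0.96 on the log2 scale (edgeR adjusted p = 3.92e-06) and so missed the minimum fold. EIF5B, the most abundant member, had 2723 and 2915 CPM (0.10, edgeR adjusted p = 0.785). None of 20 aminoacyl-tRNA synthetases was called by edgeR or DESeq2 (7 lower and 1 higher at an unadjusted p below 0.05), and SARS1 and NARS1 were lower at an adjusted p below 0.05 (−0.74 and −0.36).

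In the transcription machinery, 4 of 26 tested RNA polymerase subunits (15.4%, beside 1.63%) were called lower, and 9 were lower (34.6%, beside 5.32%) and 1 higher at an adjusted p below 0.05. The number called lower was 2 with libraries scaled by their totals and 2 without si-2c replicate 3. The median log2 fold change was −0.32. POLR2B, the second largest subunit of RNA polymerase II, had 71.5, 65.85 and 67.8 CPM in con-4c and 26.7, 30.8 and 30.1 CPM in si-2c, beside 6.05 CPM in con-2c (−1.23, SE 0.12, edgeR adjusted p = 8.83e-06). POLR2K, a subunit shared by the nuclear polymerases, fell from 245.5 ± 10.2 to 119 ± 13.0 CPM (−1.05, edgeR adjusted p = 4.58e-06), close to its con-2c level of 108 CPM. POLR1C, shared by polymerases I and III, fell from 13.2 to 4.18 CPM (−1.65, SE 0.22, edgeR adjusted p = 0.000134). POLR2C was higher, by 0.31 (edgeR adjusted p = 0.0347). It did not pass without any one con-4c library, without si-2c replicate 2 or 3, or with a replicate block in the model. Of 67 general transcription factors, Mediator and elongation factor genes 3 (4.48%, beside 1.63%) were called lower, all of them Mediator subunits. MED8 fell from 30.1 to 10.4 CPM, MED31 from 81.8 to 40.01 CPM and MED10 from 46.8 to 19.2 CPM (−1.54, −1.03 and −1.29, edgeR adjusted p 3.92e-06, 3.01e-05 and 0.000249), while MED28 was higher, by 0.48 (adjusted p = 0.00199). Without si-2c replicate 3 POLR2K was at −0.96 and MED31 at −0.97, under the minimum fold.

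Of 22 tested pluripotency and early embryonic transcription factors 3 (13.6%, beside 1.63%) were called lower, 5 (22.7%, beside 5.32%) were lower at an adjusted p below 0.05, and the median was −0.81. With libraries scaled by their totals 1 was called lower. The number lower at an adjusted p below 0.05 was 3 without con-4c replicate 1 or 3, with a median of −0.59 without the latter, and 8 with the 6 libraries fitted alone. NANOG, a homeodomain factor of pluripotent cells, had no count in con-2c and 60.1, 69.1 and 60.8 CPM in con-4c. In si-2c it had 25.4, 26.7 and 24.9 CPM, so that the libraries within each group were close together and the groups did not overlap (−1.30, SE 0.13, edgeR adjusted p = 2.35e-05). KLF4 fell from 34.2 to 17.0 CPM and KLF17, which had 0.170 CPM in con-2c, from 39.9 to 19.4 CPM (−1.01 and −1.04, edgeR adjusted p 0.000542 and 0.0119). DPPA2, a chromatin protein that the study used as a ZGA marker, had 159, 184 and 171 CPM in con-4c and 81.6, 93.2 and 87.7 CPM in si-2c. Its log2 fold change of −0.97 passed the test but not the minimum fold (edgeR adjusted p = 3.57e-05). DPPA5, the most abundant member, had 2875 ± 155 CPM in con-4c and 2310 ± 341 CPM in si-2c (−0.32, edgeR adjusted p = 0.0719). KLF4 was at −0.98 to −0.89 without any one of con-2c replicate 3, con-4c replicate 1 and si-2c replicates 2 and 3. KLF17 had an edgeR adjusted p of 0.0541 to 0.0697 without any one con-4c library or si-2c replicate 2. DPPA2 passed the minimum fold, at −1.02 and −1.01, without con-4c replicate 1 or si-2c replicate 2.

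Among genes of RNA processing, 3 of 61 tested splicing factors (4.92%, beside 1.63%) were called lower and 23 (37.7%, beside 5.32%) were lower at an adjusted p below 0.05, with a median of −0.31. The latter number was 12 with libraries scaled by their totals, 13 without con-4c replicate 2 and 15 without si-2c replicate 1. SRSF7, a serine and arginine rich splicing factor, had 113, 132 and 125 CPM in con-4c and 38.8, 40.02 and 48.3 CPM in si-2c (−1.54, SE 0.11, edgeR adjusted p = 5.23e-07). The si-2c level was near the 39.25 CPM of con-2c and the 38.2 CPM of si-4c. SF3B5 fell from 23.7 to 8.41 CPM and SRSF6 from 27.75 to 13.8 CPM (log2 fold changes of −1.49 and −1.01, edgeR adjusted p 0.000329 and 0.00240). SRSF6 was at −0.97 to −0.88, under the minimum fold, without any one of con-2c replicate 3, con-4c replicates 1 and 3, and si-2c replicates 1 and 2. Of 69 genes of mRNA decay 2 (2.90%, beside 1.63%) were called lower, both encoding parts of the nuclear exosome, the complex that trims and degrades RNA from its 3′ end. EXOSC1 had 209.8, 226 and 229 CPM in con-4c and 104, 114.5 and 105 CPM in si-2c (−1.04, SE 0.08, edgeR adjusted p = 2.12e-06). With libraries scaled by their totals EXOSC1 missed the minimum fold and 1 gene of the list was called lower, while 4 were by DESeq2 and without si-2c replicate 3. EXOSC10 fell from 96.2 to 42.6 CPM (−1.18, edgeR adjusted p = 9.08e-06). The decay list as a whole had a median of −0.15. At an adjusted p below 0.05, 12 genes (17.4%, beside 5.32%) were lower and 2 of the 69 were higher, beside 2.22% of all genes. The higher ones were METTL14 (0.65) and CNOT6L (0.35), the latter a deadenylase known from maternal mRNA clearance. Library totals as scaling left 6 lower and 4 higher, and the median was −0.02. Leaving out 1 library gave 4 to 12 lower genes, with 4 without con-4c replicate 3, 5 without con-4c replicate 2 and 6 without con-4c replicate 1 or si-2c replicate 2, and DESeq2 gave 19.

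BTG4, an adaptor that brings the CCR4-NOT deadenylase to maternal mRNA, did not differ detectably. It had 7150, 7991 and 7904 CPM in con-4c and 7835, 8874 and 6982 CPM in si-2c, overlapping ranges (0.04, SE 0.11, edgeR adjusted p = 0.920). The con-2c and si-4c means were 18570 and 19670 CPM. Of 40 tested oocyte and maternal-effect genes none was called by edgeR or DESeq2 (7 lower and 11 higher at an unadjusted p below 0.05), and the median was 0.07. At an adjusted p below 0.05, 3 of the 40 were higher, beside 2.22% of all genes, and 4 (10%, beside 5.32%) lower. The growth factor BMP15, the zona protein ZP2 and the G protein regulator RGS2 were higher, by 0.32, 0.31 and 0.37, and BRDT, H1-8, CPEB3 and LIN28A were lower, with log2 fold changes of −0.67 to −0.42. With libraries scaled by their totals 7 genes of the list were higher and 1 lower at an adjusted p below 0.05, and the median was 0.19. Leaving out 1 library gave 1 to 7 higher and 1 to 4 lower, with 1 higher and 2 lower without con-4c replicate 2, 2 higher and 1 lower without con-4c replicate 3, 2 lower without con-4c replicate 1, 7 higher without con-2c replicate 3 and 6 higher without si-2c replicate 3.

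**Figure D5:**
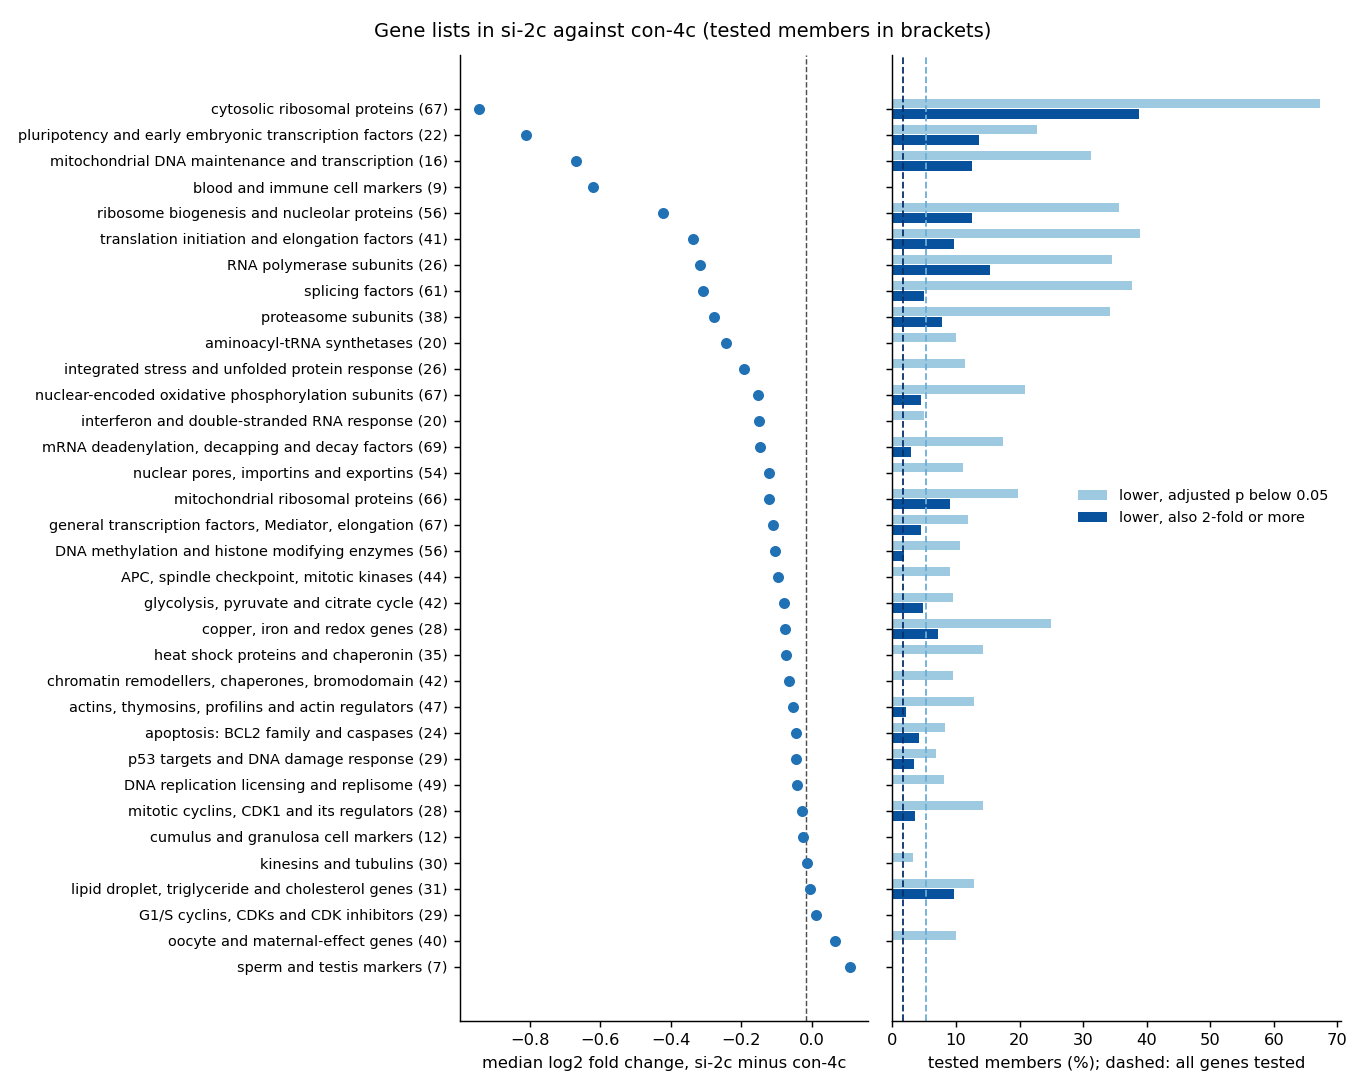
For each gene list, the median log2 fold change of its tested members (left) and the percentage lower in si-2c at an adjusted p below 0.05, with and without the 2-fold minimum (right). Dashed lines give the values over all 17995 genes; cytosolic ribosomal proteins have the lowest median in the fit described, −0.94, and most stress, replication and cytoskeleton lists lie near the line.

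The nuclear genes of mitochondria were split. TFAM, which packages mitochondrial DNA and starts its transcription, had 133, 144 and 139 CPM in con-4c and 61.1, 63.0 and 78.6 CPM in si-2c, against 1.37 CPM in con-2c and 0.694 CPM in si-4c (−1.04, SE 0.13, edgeR adjusted p = 6.85e-05). TFB2M, its partner in promoter opening, fell from 7.32 to 2.62 CPM (−1.48, edgeR adjusted p = 0.00492). TFAM was at −0.99 to −0.97 without si-2c replicate 1 or 2. The 16 tested genes of mitochondrial DNA maintenance had a median of −0.67, with 2 (12.5%, beside 1.63%) called lower and 5 (31.2%, beside 5.32%) lower at an adjusted p below 0.05, among them NRF1 and GABPA (−0.92 and −0.76), transcription factors of respiratory genes. The number called lower was 1 with libraries scaled by their totals and without si-2c replicate 1 or 2, and 4 without si-2c replicate 3. Of 66 tested genes of the mitochondrial ribosome 6 (9.09%, beside 1.63%) were called lower and 0 higher, or 3 lower without si-2c replicate 3. At an adjusted p below 0.05 alone 13 were lower (19.7%, beside 5.32%) and 4 higher, and the median was −0.12. Library totals as scaling gave 11 lower and 7 higher, with a median of −0.001. Without con-4c replicate 1 there were 9 lower and 1 higher, without con-4c replicate 3 12 and 1, and without si-2c replicate 3 9 and 3, with a median of −0.06.

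MRPS18C fell from 18.2 to 6.56 CPM, MRPL17 from 31.6 to 13.0 CPM and MRPS11 from 13.98 to 3.63 CPM (−1.48, −1.28 and −1.95, edgeR adjusted p 1.41e-05, 0.000120 and 0.000346). MRPS14, the most abundant member, had 314.5, 346 and 331 CPM in con-4c and 473, 484 and 457 CPM in si-2c, with 781 and 848 CPM in con-2c and si-4c (0.51, SE 0.07, edgeR adjusted p = 0.000248). It was thus higher in every si-2c library than in any con-4c library, and by less than the minimum fold. Of 67 nuclear-encoded subunits of oxidative phosphorylation 3 (4.48%, beside 1.63%) were called lower, 14 (20.9%, beside 5.32%) were lower and 2 higher at an adjusted p below 0.05, and the median was −0.15. With libraries scaled by their totals 0 of the 67 were called lower, 10 were lower and 7 higher at an adjusted p below 0.05, and the median was −0.03. Without con-4c replicate 3, 9 were lower at an adjusted p below 0.05. The median was −0.05 without si-2c replicate 3 and −0.20 without si-2c replicate 2. COX7A2, a subunit of cytochrome c oxidase, fell from 131 ± 6.91 to 64.7 ± 4.12 CPM (−1.02, edgeR adjusted p = 3.37e-06), and the complex I subunits NDUFB7 and NDUFA13 from 9.77 to 4.49 and from 9.30 to 4.49 CPM (−1.12 and −1.05, adjusted p 0.00391 and 0.00740). COX7A2 was at −0.99 to −0.97 without con-2c replicate 3, con-4c replicate 2 or si-2c replicate 1, and NDUFA13 at −0.91 (edgeR adjusted p = 0.0601) without con-4c replicate 3. SDHD and COX7A2L were the higher pair (0.62 and 0.44). None of the 13 listed genes for proteins encoded in mitochondrial DNA was found among the symbols of the deposited counts, so they were not analysed here.

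Of 38 proteasome genes 3 (7.89%, beside 1.63%) were called lower and 13 were lower at an adjusted p below 0.05 (34.2%, beside 5.32%), with a median of −0.28. Without con-4c replicate 3 the number called lower was 1, and without con-4c replicate 2 or 3 the number lower at an adjusted p below 0.05 was 8. PSMB7, a catalytic subunit, fell from 89.8 ± 4.97 to 39.1 ± 3.24 CPM (−1.20, edgeR adjusted p = 7.28e-05). PSMD6 and the activator subunit PSME1 fell from 18.1 to 8.67 and from 4.00 to 1.61 CPM (−1.06 and −1.32, edgeR adjusted p 0.00176 and 0.0272), and PSMB2, the most abundant member, had 1057 and 931 CPM (−0.18, adjusted p = 0.258). In metabolism 2 of 42 tested glycolysis and citrate cycle genes (4.76%), 3 of 31 lipid genes (9.68%) and 2 of 28 copper, iron and redox genes (7.14%) were called lower, beside 1.63%. The medians of these lists were −0.08, −0.01 and −0.07, turning to 0.05, 0.12 and 0.05 with libraries scaled by their totals. FABP5, a fatty acid binding protein, fell from 35.8 to 17.4 CPM (−1.04, edgeR adjusted p = 0.000134). IDH3B of the citrate cycle, PGAM1 of glycolysis and CPT1A of fatty acid oxidation had 4.76, 3.15 and 4.88 CPM in con-4c and 0.949, 0.483 and 1.24 CPM in si-2c (−2.32, −2.69 and −1.97, edgeR adjusted p 0.00601, 0.0204 and 0.0328). SCO1, a copper chaperone of cytochrome c oxidase, fell from 16.03 to 7.46 CPM (−1.10, edgeR adjusted p = 0.0423). Leaving out single libraries took the call from several of these. PSMD6 was at −0.96 to −0.91 without con-4c replicate 3 or si-2c replicate 2, and FABP5 at −0.99 without con-4c replicate 2. The edgeR adjusted p was 0.0824 to 0.146 for PSME1 without con-4c or si-2c replicate 1 or 3. It was 0.0548 to 0.139 for PGAM1 with any 1 of the con-4c libraries or si-2c replicate 1 or 2 left out, and 0.0666 to 0.142 for CPT1A with any 1 of the 6 libraries left out. For SCO1 it was 0.0516 to 0.163 with any 1 of these 6, con-2c replicate 1, or si-4c replicate 1 or 3 left out. Citrate synthase (CS) was higher, with 254, 268 and 260.0 CPM in con-4c and 356, 317 and 310.1 CPM in si-2c (0.33, edgeR adjusted p = 0.0125).

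The cell cycle lists, which hold the partners of cyclin B2, had few members that passed the test. Among 28 mitotic cyclins, CDK1 and its regulators only CCNB2 was called, and the median was −0.03, or 0.10 with libraries scaled by their totals. CCNB1 had 1239, 1305 and 1343 CPM in con-4c and 954, 1077 and 1280 CPM in si-2c, which overlap (−0.23, SE 0.11, edgeR adjusted p = 0.257). CDK1 had 135 and 117 CPM (−0.21, edgeR adjusted p = 0.469), and CCNA2 had 103 and 112 CPM (0.13, adjusted p = 0.467). CKS2, the subunit that helps CDK1 bind its substrates, had 1943, 2074 and 2021 CPM in con-4c and 1158, 1266 and 1106 CPM in si-2c (−0.77, SE 0.09, edgeR adjusted p = 3.06e-05), so it was lower in each library but by less than the minimum fold. The phosphatases CDC25C and CDC25B, which activate CDK1, were lower and higher (−0.35 and 0.52, edgeR adjusted p 0.00555 and 0.0150).

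TPX2, which loads Aurora A onto the spindle, had 2005, 2075 and 1970 CPM in con-4c and 1171, 1353 and 1386 CPM in si-2c (−0.63, SE 0.08, edgeR adjusted p = 0.000153). It was the lowest of the 4 groups there, since con-2c had 1697 and si-4c 1729 CPM. No other gene of the 44 tested in the anaphase-promoting complex, spindle checkpoint and mitotic kinase list passed except FBXO5, BIRC5 and BUB3 (−0.28, −0.54 and −0.33), and none was called (1 lower by DESeq2, 12 lower and 5 higher at an unadjusted edgeR p below 0.05). In 29 cyclins, CDKs and inhibitors of G1 and S phase none was called by edgeR or DESeq2 (3 lower and 3 higher at an unadjusted p below 0.05), nor in 49 replication genes (9 lower and 3 higher at an unadjusted p below 0.05). ORC1, the large subunit of the origin recognition complex, was the replication gene with the smallest p (82.7 and 42.8 CPM, −0.95, edgeR adjusted p = 4.99e-06). PCNA, the sliding clamp, had 11520 and 10830 CPM (−0.09, edgeR adjusted p = 0.782). CHEK2, a DNA damage kinase, had 39.5, 46.3 and 47.1 CPM in con-4c and 17.8, 14.95 and 17.0 CPM in si-2c (−1.42, SE 0.14, edgeR adjusted p = 9.01e-06) and was the sole call among 29 genes of the p53 and DNA damage response (3.45%, beside 1.63%). DIABLO, an inhibitor of the inhibitors of apoptosis, was the sole call among 24 apoptosis genes (4.17%, beside 1.63%; 16.1 and 6.40 CPM, −1.33, edgeR adjusted p = 0.000910).

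Lists of stress and chromatin gave few calls. Heat shock proteins, the integrated stress response and the interferon response had 35, 26 and 20 tested genes and no edgeR call (1, 1 and 0 called lower by DESeq2), with 10, 8 and 2 genes lower and 2, 3 and 0 higher at an unadjusted edgeR p below 0.05. The amino acid response gene ASNS rose from 87.3 to 122 CPM (0.48, edgeR adjusted p = 0.00148). Of 56 DNA methylation and histone enzymes 1 (1.79%, beside 1.63%) was called, and 2 were without con-4c replicate 1 or si-2c replicate 3. The called gene was TDG, a glycosylase of active demethylation with 53.5 ± 1.73 CPM in con-4c, 22.01 ± 0.976 in si-2c, 0.348 in con-2c and no count in si-4c (−1.28, edgeR adjusted p = 6.28e-06). The maintenance methyltransferase DNMT1, the most abundant gene of the list, had 47910 and 40200 CPM (−0.25, edgeR adjusted p = 0.116). Of 47 tested genes of the actin list 1 (2.13%, beside 1.63%) was called, and 2 were without con-4c replicate 3, si-2c replicate 1 or si-2c replicate 2. It was TPM3, a tropomyosin, falling from 75.5 to 29.8 CPM (−1.34, edgeR adjusted p = 9.24e-05), and TMSB10 and RHOA were lower without reaching the minimum fold (−0.97 and −0.59). Kinesins and tubulins, chromatin remodellers, and nuclear pores and importins had 30, 42 and 54 tested genes and no edgeR call (0, 1 and 0 called lower by DESeq2; 3, 10 and 18 lower and 2, 4 and 3 higher at an unadjusted p below 0.05). NUP214, a nucleoporin, fell from 3130 ± 159 to 2247 ± 118 CPM, by 0.48 on the log2 scale (edgeR adjusted p = 0.000567).

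The genes in excess of con-4c were fewer. Of the 29 called higher 19 had a symbol, and 27 had libraries that did not overlap, where this holds for si-2c above con-4c in 11% of all genes. SLC25A35, a mitochondrial carrier, had 8.755, 5.37 and 7.15 CPM in con-4c and 17.4, 15.7 and 11.3 CPM in si-2c (1.06, SE 0.29, edgeR adjusted p = 0.0319). PGAP2, which acts on GPI anchors, had 1.48, 2.78 and 3.97 CPM in con-4c and 9.745, 4.77 and 7.62 CPM in si-2c (1.43, SE 0.41, edgeR adjusted p = 0.0420). The pyridoxal phosphatase PDXP, the carbohydrate kinase FGGY and TMEM225B rose to 7.80, 5.23 and 4.78 CPM (1.06, 1.01 and 1.13, edgeR adjusted p 0.0163, 0.0339 and 0.0178). None of these 5 calls was kept when certain single libraries were left out. The edgeR adjusted p was then 0.1002 to 0.156 for SLC25A35 (con-4c replicates 2 and 3, si-2c replicates 1 and 2), 0.0526 to 0.181 for PGAP2 (con-4c and si-2c replicate 1, con-4c replicate 2, si-2c replicate 3, si-4c replicate 2) and 0.0530 to 0.0917 for PDXP (con-4c replicates 1 and 2, si-2c replicate 1). It was 0.0614 to 0.185 for FGGY (con-4c replicates 1 and 3, si-2c replicates 1 and 2) and 0.0575 to 0.0939 for TMEM225B (con-4c replicates 2 and 3, si-2c replicates 1 and 3).

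At an adjusted p below 0.05 without the minimum fold the excess included more abundant genes. Those with a symbol and the smallest p, picked after the values were seen, were WDR26, UBE2A, ATXN2, MRPS14, PARP12 and HILPDA. WDR26, a subunit of the CTLH ubiquitin ligase, rose from 76.8 to 116 CPM, UBE2A, a ubiquitin-conjugating enzyme, from 74.9 to 119 CPM, and ATXN2, an RNA-binding protein, from 79.4 to 131 CPM (0.59, 0.67 and 0.73, edgeR adjusted p 0.000203, 0.000209 and 0.000227). HILPDA, a lipid droplet protein, had 63.5, 62.1 and 60.2 CPM in con-4c and 89.4, 94.8 and 96.7 CPM in si-2c (0.60, SE 0.09, edgeR adjusted p = 0.000346). GRIP1 was the most abundant of the 12 with the smallest p, at 1842 CPM in con-4c and 2614 CPM in si-2c (0.50, edgeR adjusted p = 0.000705), with 4386 CPM in con-2c and 4893 CPM in si-4c. Over the 399 genes higher at any fold the median levels were 28.2 CPM in con-4c, 39.6 in si-2c, 42.01 in con-2c and 43.8 in si-4c, and the median log2 fold change was 0.50, beside −0.75 over the 957 lower genes.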

How the data were processed

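RNA of pooled embryos was amplified by SMART-seq and sequenced. The authors deposited a table of raw read counts per gene for 29329 genes. Per the submitters' processing notes, cutadapt 1.9, HISAT2 2.2.1, StringTie 2.1.6, DESeq2 and edgeR were used with the Sscrofa11.1 build. The use of strand, the treatment of reads with several matches and the annotation release are not given in the sources used here, so near-identical, overlapping and antisense genes are uncertain.

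Counts were fitted with edgeR 4.0.16 in R 4.3.3 (quasi-likelihood test, TMM scaling, default expression filter), with the 4 title groups and all 12 libraries in 1 model, and p-values were adjusted by Benjamini-Hochberg over 17995 genes. The common dispersion was 0.0745. The study named DESeq2 for its comparison, which was run as an alternative (1.42.0). CPM and SDs come from TMM-scaled libraries, and SE is that of the log2 fold change. Reads carry no molecular identifiers, so counts include amplification noise: pairs of libraries within con-4c and within si-2c differed by 6.47 to 31.5 times counting error (chi-square per degree of freedom), most in the pairs with si-2c replicate 3, so none of these 6 was a copy of another. Symbols came with the table for 15463 genes, and 128 more were filled from a gene name table. Coordinates are those of RefSeq on Sscrofa11.1, and siRNA and primer sequences those the study lists.

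Genes were named by a rule: CCNB2; the 15 genes called in each direction with the smallest p that had a symbol, at least 5 CPM and no overlap; for each of 35 lists up to 3 called members and the most abundant tested one; the 5 called genes with a symbol in each direction with the largest difference in CPM; and BTG4, EIF1AX and DPPA2. Other genes are named after their values were seen, and some genes that the rule names are not reported here. The members and lists were chosen with earlier results of these data known. Alternatives were library totals, DESeq2 size factors, DESeq2, 6 libraries only, other filters, other thresholds, thinning to 27785233 counts (added after the data were seen), a replicate block, and each library left out.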

Additional observations from a re-analysis of the deposited data

How the results depend on the processing

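The shortfall kept its direction and the excess was the less stable side. Against 29 genes higher and 293 lower, scaling by library totals gave 60 and 214, no filter on low counts gave 52 and 333, and DESeq2 gave 22 and 341, of which 15 and 270 were shared. Without a minimum fold there were 399 and 957, and with an adjusted p below 0.01 and a log2 fold change of at least 2 there were 1 and 17. Fitting the 6 libraries alone gave 38 and 415, and thinning to equal totals, added after the data were seen, 33 and 330. Leaving out 1 library gave 17 to 37 higher and 229 to 306 lower genes, of which 9 to 27 and 207 to 287 were among the 29 and 293. Without con-4c replicate 1, 2 or 3 the higher genes numbered 34, 30 and 34, of which 10, 9 and 11 were among the 29. Of 59 called named genes 33 kept the call in every alternative, 26 lost it in at least 1, and 0 of the 93 named genes reversed. Scaling by library totals took the call from EXOSC1, FAM32A, COX7A2, POLR2K, POLR2F, MED31, EIF6, TFAM, FABP5, KLF4, SUB1, PSMD6, SRSF6, NDUFB7, NDUFA13, KLF17 and SCO1. The replicate block gave 19 and 267. Libraries with the same number did not deviate together (r of 0.016, 0.013 and 0.029, each the highest for its si-2c library), so the numbers were not taken as pairs. Library totals moved the median over all genes from −0.02 to 0.11. With that, the medians of 16 lists changed sign, all of them near 0, while that of the ribosomal proteins stayed at −0.98 to −0.82 over the alternatives, with 24 to 32 genes called lower. The cause of these shifts was not tested.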

Other observations

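Genes whose symbols begin with TIMM or TOMM, most of which encode parts of the machinery that carries proteins into mitochondria, were looked at after their values were seen and belong to none of the lists described above. Of 22 tested 4 were called lower, where 1.63% of all genes were, and 0 higher by edgeR (0 higher at an unadjusted p below 0.05). At an adjusted p below 0.05 6 were lower, where 5.32% of all genes were, and 16 did not pass, with a median log2 fold change of −0.20 and 15 of 22 negative. The 4 called genes are the following. TOMM20, a receptor of the outer membrane, fell from 47.9 ± 1.92 to 18.1 ± 2.69 CPM (log2 fold change −1.40, edgeR adjusted p = 9.06e-06). TIMM10, a chaperone of the space between the membranes, had 44.6, 46.4 and 46.6 CPM in con-4c and 14.3, 12.2 and 10.2 CPM in si-2c (−1.90, edgeR adjusted p = 1.29e-05). TIMM8A and TIMM50 fell from 21.4 to 3.44 CPM and from 16.8 to 7.36 CPM (−2.64 and −1.19, edgeR adjusted p 1.43e-05 and 0.00164). In TOMM20 and TIMM10 every si-2c library was below every con-4c library.

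Some called genes had no count in all libraries of 1 group. A floor of 3 counts over the group stands in for 0 here. DIO2, a deiodinase that activates thyroid hormone, had 215 counts over con-4c and 0 over si-2c, at least 98.1-fold lower, and UPP1, a uridine phosphorylase, had 76 and 0, at least 34.7-fold lower. AOC2 had 0 counts over con-4c and 146 over si-2c, at least 35.6-fold higher. Single libraries of the other groups were also at 0. DIO2 had no count in con-2c replicates 1 and 3 and si-4c replicate 3, beside 1.74 to 2.56 CPM in the remaining libraries of those groups, UPP1 had none in con-2c replicate 1 and the si-4c libraries, and AOC2 none in si-4c replicate 3. Since these low transcripts drop out of single libraries within a group, the bounds hold for these counts and not for the conditions.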
